A study of Mus musculus with 32 samples.

Results

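Commd10 Null embryos at embryonic day 9.5 (E9.5) were compared with wild-type (WT) embryos 1 day younger, at E8.5. The comparison used 3 Null E9.5 libraries and 10 WT E8.5 libraries, 13 of the 32 libraries of the series, and every gene that had enough counts for the test, 13793 of 55414 gene identifiers. The question was which genes of the mutant differed from WT embryos of an earlier stage and, with the 9 WT E9.5 libraries added as a reference, which of these lay outside the levels of both WT stages. Each library holds 3′ ends of poly(A) RNA of whole embryos that had been taken out of their yolk sacs. Both genotypes came from crosses between heterozygotes of the line B6.Cg-Commd10Tg(Vav1-icre)A2Kio/J, in which a Vav1-iCre transgene sits in an intron of Commd10. Null embryos carry the insertion on both alleles and WT embryos carry none, so the loss of Commd10 cannot be told apart from the presence of the transgene, whose Vav1 promoter drives the recombinase in blood-forming cells. A single insertion line was used, and the labels give neither the litter nor the number of embryos behind a library, so that p-values here measure the spread between libraries. In bulk libraries a lower level in a whole embryo cannot be told apart from fewer cells of the type that makes the RNA.

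COMMD10 belongs to a family of small COMM-domain proteins that act with the CCDC22 and CCDC93 proteins in a complex that returns membrane cargo from endosomes to the cell surface. Between E8.5 and E9.5 a mouse embryo turns, closes most of its neural tube, adds somites, loops its heart tube and receives the first red cells from the yolk sac. A mutant that lags behind differs from WT embryos of its own age in every gene that changes with stage, whether or not the mutation acts on that gene, and the younger WT embryos serve here as a second reference. The study describes Null embryos at E9.5 as degrading, with signs of tissue resorption. The part of this in the changes below was not tested.

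Counts per library came to 8017017 to 9069005 in Null E9.5 and 7346301 to 8583012 in WT E8.5 embryos. The most abundant gene identifier alone took 20.2 to 22.1% of the counts in Null E9.5, 15.0 to 19.8% in WT E8.5 and 4.17 to 8.83% in WT E9.5 libraries. Shares of counts given below were not scaled for it. The Null E9.5 libraries were unlike each other: the root mean square difference in log2 CPM (counts scaled to a library of 1000000 counts, with TMM factors) between 2 of them was 1.10 to 1.44, against 0.707 to 1.05 between 2 WT E8.5 libraries. By median distance each Null E9.5 library was nearer to WT E8.5 than to WT E9.5 libraries. The distances overlapped for replicate 1 (1.06 to 1.24 to WT E8.5, 1.20 to 1.29 to WT E9.5). They also did for replicate 2 (0.931 to 1.14 and 0.966 to 1.09), but not for replicate 3 (1.05 to 1.34 and 1.35 to 1.49). For replicates 1, 2 and 3 the median distance was 1.14, 0.984 and 1.17 to the WT E8.5 libraries and 1.24, 1.06 and 1.46 to the WT E9.5 libraries. Replicate 3 stood apart in markers of tissue next to the embryo. The 23 yolk sac and visceral endoderm markers took 0.0552, 0.11 and 0.704% of the counts of Null E9.5 replicates 1, 2 and 3, 0.0574 to 0.501% in WT E8.5 and 0.0114 to 0.0279% in WT E9.5 libraries. The 18 trophoblast and placenta markers took 0.0413, 0.0901 and 0.193% in the same order, 0.0309 to 0.15% in WT E8.5 and 0.0079 to 0.0147% in WT E9.5 libraries. The 28 markers of decidua, NK cells and leukocytes took 0.00105, 0.0147 and 0.00146% in the same order, highest in replicate 2, 0.00049 to 0.00507% in WT E8.5 and 0.000695 to 0.00158% in WT E9.5 libraries, and the part of these cells in the results was not tested. Apoc2 among the yolk sac markers and Ctsj, Ctsq, Prl3b1, Synb and Tpbpb among the trophoblast markers had no count in the 13 libraries. Results are therefore also given without Null E9.5 replicate 3 where that changes them.

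**Figure D1:**
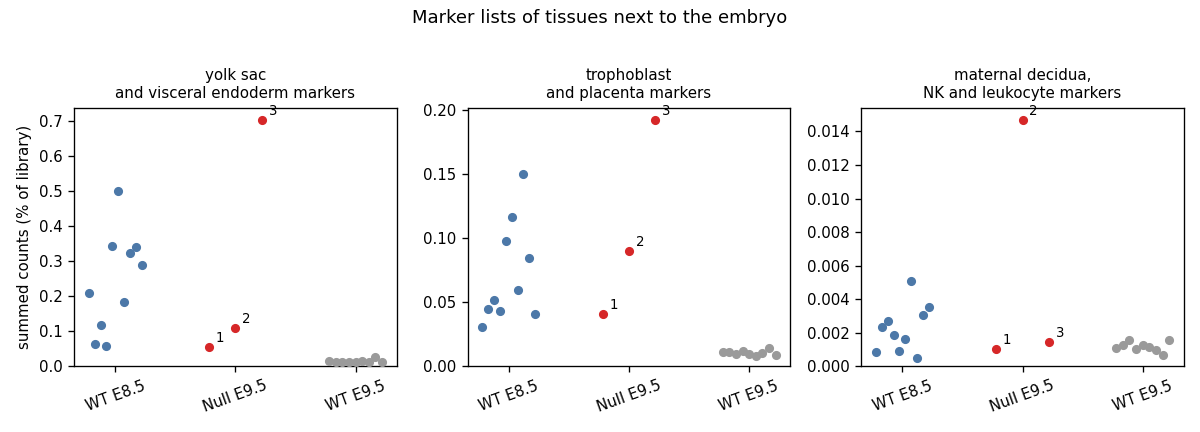
Summed counts of 3 marker lists as a percent of each library (y axes, linear) in WT E8.5 (10), Null E9.5 (3, numbered by replicate) and WT E9.5 (9) libraries. Null E9.5 replicate 3 is the highest library for the yolk sac and the trophoblast markers, and WT E8.5 libraries reach 0.501% and 0.15% for the same lists.

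Commd10 itself rose. Its level was 58.9, 82.5 and 86.2 CPM in Null E9.5 replicates 1 to 3, 36.1 to 51.2 CPM (median 42.1) in WT E8.5 and 38.7 to 55.2 CPM (median 47.2) in WT E9.5 libraries. Every Null library lay above all WT libraries of both stages, with a log2 fold change of 0.80 (95% interval 0.53 to 1.08, edgeR adjusted p = 0.00207) against WT E8.5. A 3′ library counts the end of the transcript, downstream of the intron that holds the insertion, so this level checks neither the genotype labels nor the protein. By Western blot the study found no COMMD10 protein in Null embryos at E8.5. Commd3, which encodes another COMM-domain protein, rose as well, from 27.1 to 48.0 CPM (median 34.9) in WT E8.5 to 63.7, 62.5 and 67.8 CPM in Null E9.5 libraries, a log2 fold change of 0.84 (95% interval 0.50 to 1.18, edgeR adjusted p = 0.00594). In the list of the COMMD family and its endosomal partners these 2 of 20 members tested passed (10%, against 6.92% of all genes). The median of that list was 0.11. Without Null E9.5 replicate 1, 4 members rose, and without replicate 3, 2 rose and 1 fell.

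Across all genes, 954 of 13793 passed at an adjusted p of 0.05 or less in edgeR's quasi-likelihood test (6.92%), with 540 higher (3.92%) and 414 lower (3.00%) in Null E9.5 than in WT E8.5 embryos. Of these, 388 also changed at least 2-fold and are called DEGs here (2.81%), 270 higher (1.96%) and 118 lower (0.856%). Without scaling factors the split of the genes that passed turned to 392 higher and 642 lower. Without Null E9.5 replicate 1 there were 604 DEGs, 425 higher and 179 lower. Without replicate 3 there were 399, of which 209 were among the 388. In 226 of the 388 DEGs (58.2%) every Null E9.5 library lay beyond every WT E8.5 library, which held for 2.94% of all genes on the high side and 3.25% on the low side. For 54.3% of the genes tested the 95% interval of the fold change lay within 2-fold in either direction, and for the remainder it reached or passed 2-fold on at least 1 side.

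The same Null E9.5 libraries set against WT E9.5 in a model of 22 libraries gave 2411 DEGs of 14367 genes (16.8%), and WT E9.5 against WT E8.5 gave 2046 (14.2%). In that model Null E9.5 against WT E8.5 gave 845 (5.88%). These comparisons share libraries, and their counts are set side by side without a test of the difference. A gene was called beyond both WT stages where Null E9.5 lay on the same side of WT E8.5 and of WT E9.5 and the larger of both p-values passed after adjustment. This held for 1017 of 14367 genes (7.08%), 523 above (3.64%) and 494 below both stages (3.44%). Without scaling factors the counts were 342 above and 793 below. All Null E9.5 libraries lay beyond all 19 WT libraries in 429 of the 1017, and among all 14367 genes this held above the WT libraries for 1.63% and below them for 1.91%. The model of 22 libraries also used the WT E9.5 libraries to estimate spread. Any 2 of these differed by 0.421 to 0.604 in root mean square log2 CPM, less than 2 Null E9.5 libraries did. Some genes, among them Sox10, Eomes and Aldoa, were called beyond both stages without passing against WT E8.5 in the 13 libraries.

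A developmental score placed each library by genes that change with stage in WT embryos from E9.5 on. Whether it gives the stage of a mutant library was not tested. It was the mean log2 CPM of the 200 genes with the smallest p among those higher in WT embryos 1 day older than E9.5 than in WT E9.5 embryos, minus that of the 200 lower, so that the WT E9.5 libraries, but neither the Null E9.5 nor the WT E8.5 libraries, helped to choose its genes. Null E9.5 replicates 1, 2 and 3 scored -4.47, -4.44 and -4.82, and the WT E8.5 libraries -5.22 to -4.70. The WT E9.5 libraries scored -3.99 to -3.01, above every Null E9.5 library. Null replicates 1 and 2 lay above all WT E8.5 libraries and replicate 3 within their range. The mean difference between Null E9.5 and WT E8.5 was 0.41 (exact two-sided permutation test, p = 0.0105, n = 3 and 10, where the smallest p possible is 0.0035). With 50 genes each way it was 0.30 (exact permutation p = 0.0664). Null E8.5 libraries, of the same stage as WT E8.5, scored -4.72 to -4.46. The part of stage and of genotype in the difference was not tested.

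**Figure D2:**
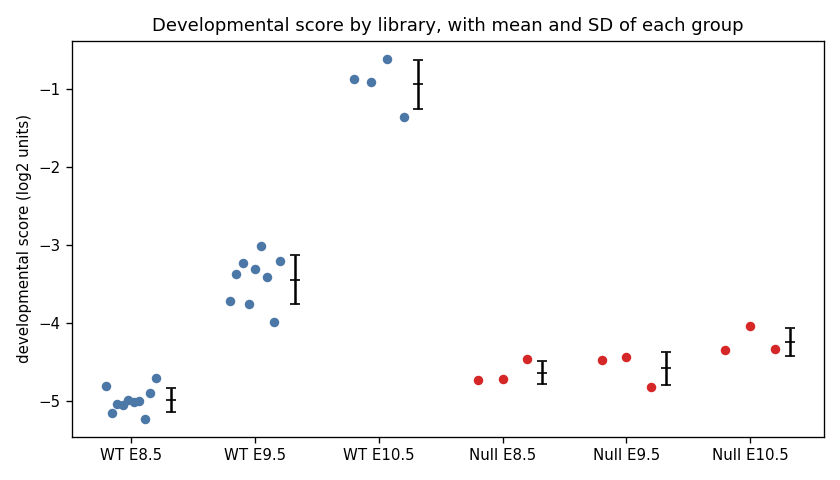
Developmental score of each library (y axis, log2 units, higher for older WT embryos) by genotype and stage, with the mean and SD of each group beside its points. The 3 Null E9.5 libraries sit at -4.82 to -4.44, next to WT E8.5 (-5.22 to -4.70) and below WT E9.5 (-3.99 to -3.01), which itself helped to choose the genes.

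Embryonic globins and other red cell genes rose most by list median. Primitive red cells made in the yolk sac carry the embryonic hemoglobin chains zeta (Hba-x), epsilon-y (Hbb-y) and beta-h1 (Hbb-bh1), and they enter the embryo once the heart beats. Of 7 globin genes tested 5 rose (71.4%, against 3.92% of all genes), with a list median of 3.50 beside 0.04 for all genes. Of 22 other erythroid genes in the data 15 had enough counts to be tested. Of these 15, 11 rose (73.3%, against 3.92% of all genes) and none fell, with a median of 2.74. A gene near 0 in WT E8.5 could enter the test through the Null libraries alone. The shares and medians of both lists therefore lean towards genes that rose. The 11 numbered 5 without Null E9.5 replicate 3, where the median was 1.83.

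Hbb-y counted 1923, 409.9 and 584 CPM in the Null E9.5 replicates, 0 to 63.2 CPM (median 5.65) in WT E8.5 and 2967 to 10680.2 CPM (median 4169) in WT E9.5 libraries. All Null libraries were above the WT E8.5 libraries and below the WT E9.5 libraries, with a log2 fold change of 6.24 (95% interval 4.42 to 8.07, edgeR adjusted p = 0.001) against WT E8.5. Hba-x was at 1441, 412 and 3126 CPM in Null E9.5 and 1.32 to 140.0 CPM (median 17.5) in WT E8.5 libraries, a log2 fold change of 5.35 (95% interval 3.65 to 7.04, edgeR adjusted p = 0.00144), and at 1655 to 6477 CPM (median 1958) in WT E9.5 libraries. Hbb-bh1 reached 1606, 547 and 6513 CPM, against 7.30 to 234 CPM (median 33.8) in WT E8.5 libraries, a log2 fold change of 5.34 (95% interval 3.74 to 6.94, edgeR adjusted p = 0.00116). Its Null replicate 3 exceeded every WT E9.5 library, which held 1524 to 4544 CPM (median 1771), and replicate 2 fell short of all of them. Hba-a1 and Hba-a2, alpha-globin genes that are near copies of each other and whose reads may be split between them, rose by 3.50 (edgeR adjusted p = 0.000849) and 2.52 (edgeR adjusted p = 0.00687) on the log2 scale, and Hba-a2 is named after its values were seen. Hbb-bs and Hbb-bt, the adult beta-globin genes, are the 2 that did not pass.

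Outside the globins, Hemgn, which encodes a nuclear protein of red cell precursors, stood at 17.4, 4.34 and 38.6 CPM in Null E9.5 and 0 to 2.30 CPM (median 0.25) in WT E8.5 libraries, a log2 fold change of 5.37 (95% interval 3.76 to 6.97, edgeR adjusted p = 0.00116). Slc4a1, the band 3 anion exchanger, was at 12.5, 5.74 and 26.0 CPM, against 0 to 1.91 CPM (median 0), with a log2 fold change of 5.11 (edgeR adjusted p = 0.00267). Alas2, the first enzyme of heme synthesis in red cells, gave 19.4, 4.46 and 43.9 CPM, against 0.251 to 2.39 CPM (median 1.77) in WT E8.5 and 20.8 to 62.0 CPM (median 28.1) in WT E9.5 libraries. In each of these genes all Null libraries were above all WT E8.5 libraries, and Null replicate 2 was below every WT E9.5 library. Klf1, the erythroid master regulator, reached 39.9 CPM in Null replicate 3 and 7.00 and 4.21 CPM in replicates 1 and 2. It passed with a log2 fold change of 3.43 (edgeR adjusted p = 0.0174) and, named after its values were seen, did not without replicate 3, where it was 1.83 (edgeR adjusted p = 0.243). No globin and no erythroid gene was called beyond both WT stages in edgeR with all libraries, and 2 erythroid genes were called above both without Null E9.5 replicate 1. Null E9.5 against WT E9.5 gave list medians of -0.88 for globins and 0.18 for the other erythroid genes. The 5 globins also passed without replicate 3. The part of yolk sac blood in these levels was not tested.

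**Figure D3:**
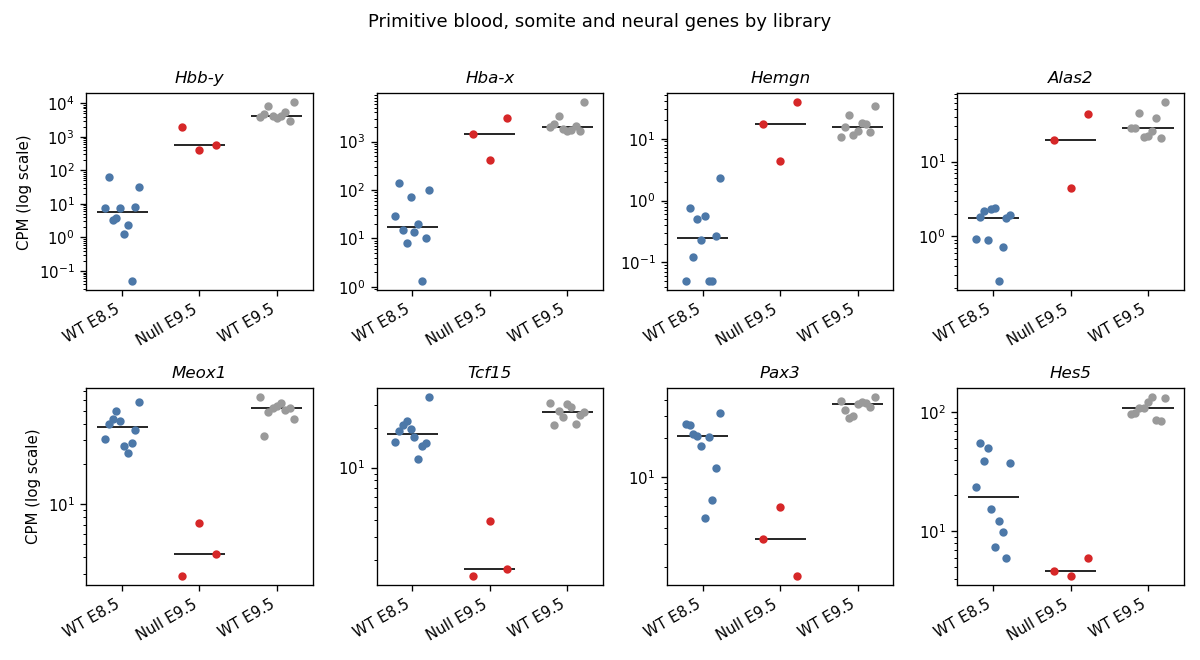
CPM of 8 genes in each WT E8.5 (10), Null E9.5 (3) and WT E9.5 (9) library (log axes, values below 0.05 drawn at 0.05, lines at the group median). Null libraries lie above WT E8.5 for the 4 blood genes in the top row and below WT E8.5 and WT E9.5 for Meox1 and Tcf15, and 2 of the 3 for Pax3 and all 3 for Hes5 lie below the lowest WT E8.5 library.

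Neural tube factors were among the genes that fell. Regional transcription factors divide the neural tube into forebrain, midbrain, hindbrain and spinal cord domains, and SoxB1 factors such as Sox3 keep its progenitors in place. Of 34 tested none rose and 6 fell (17.6%, against 3.00% of all genes), the list median was -1.77 and 33 of the 34 fitted changes were negative. In WT embryos the same list had a median of 0.85 from E8.5 to E9.5, and 15 of 36 members were called below both WT stages (41.7%, against 3.44% of all genes). The WT E8.5 libraries themselves differed widely, with 0.0204 to 0.125% of counts in these genes, against 0.0261 to 0.063% in Null E9.5 and 0.153 to 0.21% in WT E9.5 libraries. Without Null E9.5 replicate 3 no member passed in edgeR, 19 of 35 were lower at an unadjusted p under 0.05, and the median was -1.83. The count of 6 was 3 or 2 without Null replicate 1 or 2, 2 or 3 without any of WT E8.5 replicates 1, 2, 3, 4, 5 and 7, 11 without WT E8.5 replicate 6 and 15 without replicate 8, and DESeq2 with all libraries called 17 lower. Below both WT stages the 15 became 8 without Null replicate 2 and 6 without replicate 3.

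Pax3, a factor of the dorsal neural tube and of muscle precursors, was at 3.29, 5.87 and 1.69 CPM in Null E9.5, 4.77 to 31.5 CPM (median 20.7) in WT E8.5 and 28.9 to 41.9 CPM (median 36.9) in WT E9.5 libraries. Null replicate 2 lay within the WT E8.5 range, the others below it, and all 3 below every WT E9.5 library, with a log2 fold change of -2.36 (95% interval -3.52 to -1.19, edgeR adjusted p = 0.0193) that without replicate 3 was -2.01 (edgeR adjusted p = 0.0568). Sox3 was at 22.9, 27.2 and 13.6 CPM, against 17.8 to 84.0 CPM (median 57.6) in WT E8.5 libraries, a log2 fold change of -1.47 (95% interval -2.21 to -0.72, edgeR adjusted p = 0.0224), and without replicate 3 -1.22 (edgeR adjusted p = 0.068). Replicates 1 and 2 lay within the WT E8.5 range and replicate 3 below it. Hes5, the repressor that Notch signalling turns on in neural progenitors, was at 4.67, 4.21 and 5.93 CPM, against 5.93 to 55.1 CPM (median 19.5) in WT E8.5 and 83.8 to 133 CPM (median 108) in WT E9.5 libraries. Its log2 fold change of -2.37 (edgeR adjusted p = 0.047) lost its call without any 1 of 10 libraries, Null E9.5 replicates 1, 2 and 3 and WT E8.5 replicates 1, 2, 3, 4, 5, 7 and 10 (adjusted p 0.0521 to 0.126, edgeR). Pax7, another dorsal factor, was at 1.10, 1.40 and 1.33 CPM, against 0.957 to 10.52 CPM (median 5.13), and all Null libraries lay within the WT E8.5 range. The call of Pax7, with a log2 fold change of -2.01 (edgeR adjusted p = 0.0372), failed without each of 8 libraries, Null E9.5 replicates 1, 2 and 3 and WT E8.5 replicates 1, 2, 3, 4 and 7 (adjusted p 0.0515 to 0.0858, edgeR). These genes were called below both WT stages, with a log2 fold change for Pax3 of -2.36 against the nearer WT stage (edgeR adjusted p = 0.00142), for Sox3 of -1.47 against the nearer WT stage (edgeR adjusted p = 0.00291) and for Hes5 of -2.37 against the nearer WT stage (edgeR adjusted p = 0.0107).

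Hes3, which is in none of the lists, fell too. This repressor marks the boundary between midbrain and hindbrain, and its level in WT embryos drops from E8.5 to E9.5. Null E9.5 libraries held 7.27, 4.46 and 4.48 CPM, WT E8.5 libraries 18.3 to 46.9 CPM (median 33.1) and WT E9.5 libraries 7.38 to 14.7 CPM (median 11.2). All Null libraries were below all WT libraries of both stages, with a log2 fold change of -2.64 (edgeR adjusted p = 0.000298) against WT E8.5.

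Of 18 genes of neuronal differentiation tested 5 fell (27.8%, against 3.00% of all genes) and none rose, with a median of -0.97. The 5 became 2 or 3 without any 1 of the Null E9.5 libraries or of WT E8.5 replicates 1, 2, 3, 4 and 9, and 8 without WT E8.5 replicate 8. Neurog2, the proneural factor that starts neurogenesis, had 0 counts in all 3 Null E9.5 libraries, 70 in the 10 WT E8.5 libraries and 1070 in the 9 WT E9.5 libraries. With a floor of 3 counts for the group as a whole it was at least 7.28-fold lower than in WT E8.5 and at least 130.1-fold lower than in WT E9.5 embryos. Its adjusted p of 0.0426 from edgeR rose to 0.0562 to 0.097 without each of 9 libraries, Null E9.5 replicates 1, 2 and 3 and WT E8.5 replicates 1, 2, 3, 4, 9 and 10. Pou4f1, a factor of sensory neurons, had 3 counts in Null E9.5 and 108 in WT E8.5 libraries, a ratio of 11.2-fold with an exact 95% counting interval of 3.74 to 55.3, and lost its call without Null replicate 1 or 2 (adjusted p 0.0557 to 0.087, edgeR). Dll1, the Notch ligand of newborn neurons and of the presomitic mesoderm, was at 0.275, 2.55 and 3.39 CPM, against 3.01 to 20.8 CPM (median 12.1), with a log2 fold change of -2.49 (edgeR adjusted p = 0.0288) that was lost without Null replicate 1 or 2 (adjusted p 0.0521 to 0.0641, edgeR).

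Among the neural and ectodermal genes outside the lists, Apba2, which encodes a neuronal adaptor protein, was at 0.961, 3.19 and 0.605 CPM in Null E9.5, 6.39 to 14.6 CPM (median 8.74) in WT E8.5 and 11.4 to 24.3 CPM (median 16.0) in WT E9.5 libraries. No Null library reached the lowest WT library, with a log2 fold change of -2.57 (95% interval -3.56 to -1.58, edgeR adjusted p = 0.00388) against WT E8.5. Ildr2 and Phyhipl were also among the 10 largest decreases. Their log2 fold changes were -2.31 (edgeR adjusted p = 0.0147) and -2.20 (edgeR adjusted p = 0.00972).

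Of the 23 genes of neural crest and cranial mesenchyme tested 1 fell (4.35%, against 3.00% of all genes) and none rose. The median was -0.24. The count that fell was 0 in edgeR without Null E9.5 replicate 2 or 3 or any of WT E8.5 replicates 1, 2, 3, 4, 5, 7 and 10, and 2 without Null E9.5 replicate 1 or WT E8.5 replicate 6, 8 or 9, and DESeq2 with all libraries called 3 lower. Without Null E9.5 replicate 1 or 3, 1 member rose. Tfap2b, an AP-2 factor of the crest, had no count in any Null E9.5 library, 986 in WT E8.5 and 4318 in WT E9.5 libraries, at least 102.5-fold and at least 525-fold lower against the same floor. The WT E8.5 libraries ran from 0 to 31.1 CPM, so the groups met at 0 and the adjusted p was 0.0509 from edgeR. Sox10, which marks migrating crest, was at 0.549, 0.893 and 0 CPM, against 0 to 32.7 CPM (median 7.09) in WT E8.5 and 14.8 to 34.6 CPM (median 24.0) in WT E9.5 libraries. The groups overlapped at E8.5 (adjusted p = 0.0926, edgeR), while all Null libraries were below all WT E9.5 libraries, and Null E9.5 was called below both stages (adjusted p = 0.0277, and 0.103 without replicate 3, edgeR).

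Somite genes were also among those that fell. Somites bud from the presomitic mesoderm in a segmental rhythm, and Tcf15 and Meox1 are needed for their epithelial form and for the sclerotome. Of 17 genes tested 6 fell (35.3%, against 3.00% of all genes), none rose, 3 fell without Null E9.5 replicate 3, and the median was -1.40, beside 0.42 between the WT stages E8.5 and E9.5. Meox1 was at 2.88, 7.14 and 4.24 CPM in Null E9.5, 24.3 to 57.9 CPM (median 37.9) in WT E8.5 and 32.5 to 63.2 CPM (median 52.5) in WT E9.5 libraries. Tcf15 was at 1.51, 3.95 and 1.69 CPM, 11.5 to 34.1 CPM (median 17.9) and 20.8 to 30.6 CPM (median 26.3) in the same order. For both genes all Null libraries were below all WT libraries. Meox1 had a log2 fold change of -2.99 (95% interval -3.69 to -2.28, edgeR adjusted p = 0.000223) against WT E8.5 and Tcf15 a log2 fold change of -2.98 (95% interval -3.79 to -2.17, edgeR adjusted p = 0.000627). Against both WT stages at once Meox1 gave -2.99 against the nearer WT stage (edgeR adjusted p = 6.28e-07) and Tcf15 -2.98 against the nearer WT stage (edgeR adjusted p = 1.93e-06), and both kept their calls with each of the 13 libraries left out. Foxc2, a forkhead factor of the paraxial mesoderm, was at 30.7, 23.0 and 11.7 CPM, against 37.1 to 77.9 CPM (median 65.4), a log2 fold change of -1.49 (edgeR adjusted p = 0.00514). Aldh1a2, the enzyme that makes retinoic acid in somites, was at 33.2, 34.0 and 15.5 CPM, against 37.2 to 168 CPM (median 80.4) in WT E8.5 and 26.7 to 45.2 CPM (median 33.7) in WT E9.5 libraries. The log2 fold change of -1.72 (edgeR adjusted p = 0.0242) failed without Null replicate 3, at -1.43 (edgeR adjusted p = 0.0696). Gadd45a, a stress gene of growth arrest and DNA repair, was also among the 10 largest decreases, with 0.275, 2.17 and 2.66 CPM against 3.35 to 13.0 CPM (median 10.3) and a log2 fold change of -2.41 (edgeR adjusted p = 0.02).

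The genes of the epiblast, primitive streak and tailbud went both ways, with 12 fitted changes above 0 and 12 below against WT E8.5. In WT embryos these genes decline as gastrulation ends, and their median change between the WT stages E8.5 and E9.5 was -2.44. Null E9.5 against WT E8.5 gave a median of -0.04 over 24 genes, and against WT E9.5 a median of 2.43. Of the 24, 1 rose in edgeR (4.17%, against 3.92% of all genes) and none fell. At an unadjusted p under 0.05, 4 were higher and 5 lower, and DESeq2 called 1 higher and 3 lower. Above both WT stages 3 of 24 were called, against 3.64% of all genes. The 1 that rose was Utf1, a chromatin factor of pluripotent cells, at 6.18, 1.15 and 32.9 CPM, against 0.636 to 6.34 CPM (median 1.45). Its log2 fold change of 2.48 (edgeR adjusted p = 0.0452) rested on replicate 3 and was 0.61 (edgeR adjusted p = 0.685) without it. It also failed without each of WT E8.5 replicates 1, 2, 3, 4, 5, 7, 8 and 10 (edgeR adjusted p at least 0.0563). None of these 24 had a 95% interval within 2-fold. Eomes, the T-box factor of the early streak and of trophoblast, was at 26.6, 3.32 and 9.81 CPM in Null E9.5, 0 to 5.62 CPM (median 0.705) in WT E8.5 and 0 to 0.357 CPM (median 0) in WT E9.5 libraries. Null replicates 1 and 3 were above every WT library, replicate 2 was not, and the adjusted p was 0.0574 against WT E8.5 and 0.0194 against both stages from edgeR. The 12 genes of the notochord, node and floor plate had a median of 0.86. Of these 1 rose (8.33%, against 3.92% of all genes) and none fell. It was Foxa2, the forkhead factor of node, notochord and gut, at 92.4, 44.8 and 59.0 CPM, against 28.9 to 48.7 CPM (median 37.0), with a log2 fold change of 0.78 (edgeR adjusted p = 0.0216) that was lost without Null replicate 1, the highest library (adjusted p = 0.151, edgeR).

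Hox genes give the position of cells along the body axis and are switched on in the order of their paralog groups. Of the 14 tested in groups 1 to 5, 1 fell (7.14%, against 3.00% of all genes) and none rose, with a median of -1.06. The 11 of groups 6 to 9 had a median of -0.21 with 0 calls (1 lower at an unadjusted p under 0.05, 0 calls in DESeq2). The 8 of groups 10 to 13 had a median of 0.77 with 0 calls (0 at an unadjusted p under 0.05 in edgeR and 0 calls in DESeq2). In WT embryos the medians of the 3 groups from E8.5 to E9.5 were 0.81, 0.76 and 3.22. Hoxd4 was at 5.77, 6.25 and 5.69 CPM in Null E9.5, 6.81 to 28.1 CPM (median 17.0) in WT E8.5 and 34.1 to 59.5 CPM (median 45.3) in WT E9.5 libraries, below every WT library. A log2 fold change of -1.53 (edgeR adjusted p = 0.0457) against WT E8.5 failed without each of 9 libraries, Null E9.5 replicates 1, 2 and 3 and WT E8.5 replicates 1, 2, 3, 4, 8 and 10 (adjusted p 0.0563 to 0.104, edgeR). Hoxa11 of the posterior groups was at 1.37, 18.5 and 5.08 CPM in Null E9.5 and 0.255 to 8.14 CPM (median 1.76) in WT E8.5 libraries, and the groups overlapped (adjusted p = 0.235, edgeR).

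Transcription factors of the heart were among the genes that rose. GATA, Hand and T-box factors build the heart tube, and sarcomere proteins follow as the muscle starts to contract. Of 14 cardiac transcription factors tested 5 rose (35.7%, against 3.92% of all genes) and none fell, and 2 rose without scaling factors. Above both WT stages 5 of 14 were called (35.7%, against 3.64% of all genes). Both counts of 5 were 3 without Null E9.5 replicate 2, and 3 rose without WT E8.5 replicate 1, 2, 4 or 5. The list median was 0.80, beside -0.37 between the WT stages E8.5 and E9.5. Hand1, a factor of the outer heart curvature, of lateral mesoderm and of trophoblast giant cells, was at 187, 155 and 220.4 CPM in Null E9.5, 27.7 to 87.4 CPM (median 58.7) in WT E8.5 and 18.2 to 38.8 CPM (median 29.1) in WT E9.5 libraries. All Null libraries exceeded all WT libraries, with a log2 fold change of 1.71 (95% interval 1.18 to 2.25, edgeR adjusted p = 0.00136) against WT E8.5, and without replicate 3 1.58 (edgeR adjusted p = 0.00437). Gata5 was at 68.5, 45.0 and 18.6 CPM, against 9.45 to 21.7 CPM (median 15.4) in WT E8.5 and 4.14 to 10.49 CPM (median 7.86) in WT E9.5 libraries, with a log2 fold change of 1.47 (95% interval 0.88 to 2.07, edgeR adjusted p = 0.00532). Its replicate 3 lay within the WT E8.5 range and the other replicates above it. Gata4 was at 58.9, 49.5 and 69.7 CPM, against 23.0 to 55.8 CPM (median 33.6), and its log2 fold change of 0.81 (edgeR adjusted p = 0.0368) failed without each of 8 libraries, Null E9.5 replicates 1 and 3 and WT E8.5 replicates 1, 2, 3, 4, 5 and 7 (adjusted p 0.0508 to 0.106, edgeR), and without scaling factors (adjusted p = 0.0511, edgeR).

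None of 21 sarcomere and cardiomyocyte genes passed in edgeR, with 2 higher at an unadjusted p under 0.05 and 1 called higher by DESeq2, while 18 of the 21 fitted changes were positive and the median was 1.19. Between the WT stages E8.5 and E9.5 the median was 1.11, and Null E9.5 against WT E9.5 gave 0.02. Titin (Ttn), the spring of the sarcomere, was at 261, 144 and 36.3 CPM in Null E9.5, 0.239 to 54.9 CPM (median 33.3) in WT E8.5 and 42.4 to 129 CPM (median 54.1) in WT E9.5 libraries (adjusted p = 0.0661, edgeR). Ryr2, the calcium release channel of heart muscle, was at 38.3, 15.0 and 6.29 CPM, against 1.20 to 10.3 CPM (median 7.00) (adjusted p = 0.0566, edgeR). In both genes replicate 1 was highest and replicate 3 lay within the WT E8.5 range. Without replicate 3, Ttn and Ryr2 passed with 2.93 (edgeR adjusted p = 0.0348) and 2.04 (edgeR adjusted p = 0.0186).

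In endothelium, the lining of vessels, 4 of 23 genes rose (17.4%, against 3.92% of all genes), none fell, 22 of 23 fitted changes were positive and the median was 0.92. Between the WT stages E8.5 and E9.5 the median was 0.68, and Null E9.5 against WT E9.5 gave 0.39. Above both WT stages 2 of 24 were called, against 3.64% of all genes. The count of 4 that rose against WT E8.5 was 10 without Null E9.5 replicate 1, 0 without replicate 2 and 2 without WT E8.5 replicate 3, 4 or 7, and DESeq2 called 9. Gja4, the arterial gap junction protein connexin 37, was at 13.6, 31.2 and 17.8 CPM, against 3.32 to 10.8 CPM (median 7.68), a log2 fold change of 1.50 (edgeR adjusted p = 0.0171). Flt1, a VEGF receptor, was at 50.4, 128 and 78.7 CPM, against 37.8 to 61.4 CPM (median 44.4), a log2 fold change of 0.89 (edgeR adjusted p = 0.0151). Both leaned on replicate 2, the highest library, without which the adjusted p was 0.118 for Gja4 and 0.139 for Flt1 in edgeR.

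Genes of glycolysis and of the response to low oxygen were among those above both WT stages. Hypoxia-inducible factors (HIF) bind a short core, ACGTG or GCGTG, near genes of glycolysis and oxygen sensing, and the prolyl hydroxylase Egln3 is both a sensor and a target. Of 33 genes of glycolysis and HIF targets tested 7 rose and 1, Gapdh, fell (24.2% together, against 6.92% of all genes). The median was 0.41. Against both WT stages 12 of 33 were called above (36.4%, against 3.64% of all genes) and none below, with 11 without Null E9.5 replicate 3 and 7 without replicate 1. In WT embryos the list median was -0.48 from E8.5 to E9.5.

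Of these 12 genes 11 had a RefSeq promoter (GRCm38.p6, 250 bases before to 50 after the start of the gene), and 10 of the 11 held at least 1 of both cores on either strand. Of all 32851 promoters, 19.6% held ACGTG, 32.4% GCGTG and 43.8% either. These shares count single promoters, whereas some of the 12 genes had several, and the list was drawn up with HIF targets. The shares are therefore not like for like. The lines below show 1 core of each of 6 of them in capitals with 10 bases on each side, on the strand of the gene. They describe the sequence and not binding. The P4ha2 line also holds the core GCGTG, left in lower case. CACGT is the core ACGTG read on the opposite strand.
Pfkp, chr13:6648825-6648849, minus strand: ccccgcccttGCGTGagtcccgccc
Egln3, chr12:54204089-54204113, minus strand: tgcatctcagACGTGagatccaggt
Ero1l, chr14:45318621-45318645, minus strand: cgcgccgctgCACGTccgcagggga
P4ha2, chr11:54100836-54100860, plus strand: tgcatcgcatACGTGcagcgcgtgg
Slc16a3, chr11:120949030-120949054, plus strand: ggcagcggtgACGTGcgcgggggac
Aldoa, chr7:126799366-126799390, minus strand: tggctcgagtCACGTcctagcgggg

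Pfkp, the platelet-type phosphofructokinase that commits glucose to glycolysis, was at 56.7, 48.6 and 47.8 CPM in Null E9.5, 12.3 to 20.1 CPM (median 15.5) in WT E8.5 and 6.17 to 11.9 CPM (median 9.24) in WT E9.5 libraries. The 3 Null libraries were close together and far above all 19 WT libraries, with a log2 fold change of 1.72 (95% interval 1.40 to 2.05, edgeR adjusted p = 2.55e-05) against WT E8.5. Egln3 was at 29.1, 49.9 and 29.4 CPM, against 8.30 to 21.5 CPM (median 13.1) and 6.29 to 9.65 CPM (median 9.21), with a log2 fold change of 1.41 (95% interval 0.89 to 1.93, edgeR adjusted p = 0.00297). Ndrg1, a stress-induced gene that is a common marker of low oxygen, was at 39.5, 36.0 and 130.0 CPM, against 5.79 to 14.2 CPM (median 8.01) in WT E8.5 and 5.48 to 9.46 CPM (median 7.74) in WT E9.5 libraries. Replicate 3 was the highest and all Null libraries were above all WT libraries, with a log2 fold change of 3.00 (95% interval 2.37 to 3.62, edgeR adjusted p = 6.7e-05) and, without replicate 3, 2.14 (edgeR adjusted p = 0.000153). Ero1l, the oxidase that forms disulfide bonds in the endoplasmic reticulum, was at 20.6, 21.2 and 95.9 CPM, against 9.86 to 17.8 CPM (median 12.3). Its log2 fold change of 1.84 (edgeR adjusted p = 0.00333) shrank to 0.71 (edgeR adjusted p = 0.0537) without replicate 3.

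The other genes whose promoters are shown, named after their values were seen, had smaller changes. Slc16a3, the lactate exporter MCT4, was at 549.9, 385 and 321 CPM, against 145 to 307 CPM (median 273) in WT E8.5 libraries, with 0.76 (edgeR adjusted p = 0.0366) on the log2 scale, and failed without Null E9.5 replicate 1 or 2 or WT E8.5 replicate 5 or 7 (adjusted p 0.0565 to 0.17, edgeR). P4ha2, a collagen prolyl hydroxylase, was at 38.0, 80.5 and 67.3 CPM, against 18.2 to 41.2 CPM (median 35.1), with 0.89 (edgeR adjusted p = 0.0261) on the log2 scale, and failed without Null replicate 2 or 3 (adjusted p 0.0667 to 0.141, edgeR). Aldoa, the glycolytic aldolase, did not pass against WT E8.5, with 1987, 1270.5 and 1186 CPM against 772 to 1292 CPM (median 1096) and 0.46 (edgeR adjusted p = 0.0805) on the log2 scale. All Null libraries were above all WT E8.5 libraries in Slc16a3 and 2 of the 3 in P4ha2 and 1 of the 3 in Aldoa. Gapdh, which encodes a glycolytic enzyme too, was at 202, 292 and 198 CPM, against 261 to 419.6 CPM (median 328) in WT E8.5 and 160.1 to 255 CPM (median 222) in WT E9.5 libraries. The fall of 0.51 on the log2 scale (edgeR adjusted p = 0.0466) failed without any 1 of 11 libraries, all but Null E9.5 replicate 2 and WT E8.5 replicate 9 (adjusted p 0.0507 to 0.144, edgeR).

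Epas1, which encodes the HIF-2 alpha subunit and is named after its values were seen, was at 33.2, 32.9 and 42.6 CPM, against 4.32 to 14.9 CPM (median 10.6) in WT E8.5 and 4.28 to 10.9 CPM (median 7.53) in WT E9.5 libraries. Each Null library exceeded all WT libraries, with a log2 fold change of 1.88 (95% interval 1.35 to 2.40, edgeR adjusted p = 0.00073). Cox4i2, the cytochrome c oxidase subunit used at low oxygen, was at 8.65, 9.44 and 4.72 CPM, against 0.979 to 2.97 CPM (median 1.49) and 0.846 to 2.53 CPM (median 1.73), with a log2 fold change of 2.05 (95% interval 1.23 to 2.86, edgeR adjusted p = 0.00501). Pfkp, Egln3, Ndrg1, Epas1 and Cox4i2 kept their calls with each of the 13 libraries left out in turn. The mitochondrial genome, whose transcripts encode other subunits of the respiratory chain, had a median of 0.53 over 10 genes with 0 calls in edgeR, 4 higher at an unadjusted p under 0.05 and 0 calls in DESeq2. Without Null E9.5 replicate 3 the median was -0.01 and none was higher at an unadjusted p under 0.05. Its transcripts took 1.89, 1.76 and 3.62% of the counts of Null E9.5 replicates 1, 2 and 3 and 1.22 to 3.13% in WT E8.5 libraries.

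**Figure D4:**
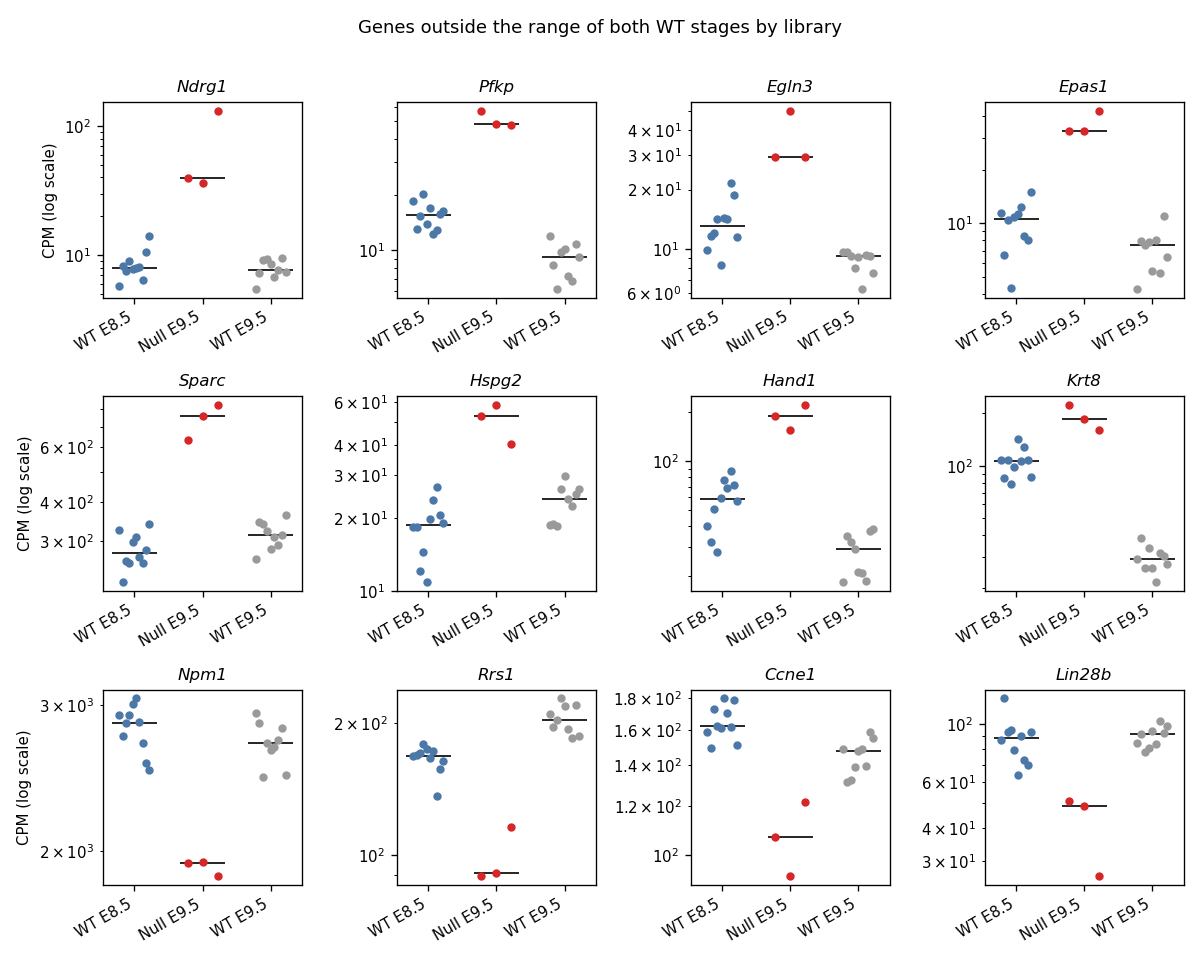
CPM of 12 genes in each WT E8.5 (10), Null E9.5 (3) and WT E9.5 (9) library (log axes, lines at the group median). All Null libraries lie above all WT libraries of both stages in the upper 8 panels and below all of them in the lower 4.

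Matrix genes were among those that rose. Laminin, type IV collagen, nidogen and perlecan form the basement membrane under epithelia and endothelium. Of 23 extracellular matrix genes tested 10 rose (43.5%, against 3.92% of all genes) and none fell, all 23 fitted changes were positive and the median was 1.11. Against both WT stages 10 of 23 were called above (43.5%, against 3.64% of all genes), and 7 without Null E9.5 replicate 3. Between the WT stages E8.5 and E9.5 the list median was 0.34. Sparc, a collagen-binding glycoprotein, was at 632, 757 and 822 CPM in Null E9.5, 221 to 341 CPM (median 274) in WT E8.5 and 263 to 364 CPM (median 313) in WT E9.5 libraries. Hspg2, the perlecan core protein, was at 52.7, 58.7 and 40.4 CPM, against 10.8 to 26.9 CPM (median 18.8) and 18.6 to 29.8 CPM (median 23.9). In both genes the groups did not overlap, and Sparc had a log2 fold change of 1.39 (95% interval 1.16 to 1.63, edgeR adjusted p = 1.47e-05) and Hspg2 a log2 fold change of 1.46 (95% interval 1.00 to 1.92, edgeR adjusted p = 0.00144). Lama1, a laminin chain of the earliest basement membranes, was at 41.7, 24.5 and 112 CPM, against 12.0 to 19.9 CPM (median 16.4), with a log2 fold change of 1.87 (edgeR adjusted p = 0.00144) and, without replicate 3, 1.04 (edgeR adjusted p = 0.0103). Col1a1, a collagen chain, was at 138, 357 and 111 CPM, against 28.4 to 68.2 CPM (median 46.3) in WT E8.5 and 85.5 to 272 CPM (median 192) in WT E9.5 libraries. Its log2 fold change was 2.16 against WT E8.5 (edgeR adjusted p = 0.000627) and 0.24 against WT E9.5 (edgeR adjusted p = 0.584). Col1a1 was not called beyond both WT stages. Col4a2 and Fn1, named after their values were seen, encode a type IV collagen chain and fibronectin. Col4a2 was at 115, 109 and 339 CPM, against 54.4 to 86.6 CPM (median 67.9), and its log2 fold change of 1.44 (edgeR adjusted p = 0.00216) was 0.70 (edgeR adjusted p = 0.01) without replicate 3. Fn1 was at 510.3, 582 and 273 CPM, against 172 to 399 CPM (median 212), with a log2 fold change of 1.00 (edgeR adjusted p = 0.0125), and failed without Null replicate 2 (adjusted p = 0.0753, edgeR). Lama1 and the type IV collagens are also made in large amounts by parietal endoderm, and the yolk sac and trophoblast markers were highest in the same replicate 3. Their part in these levels was not tested.

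Keratins are the filaments of epithelia. Of 19 genes of surface ectoderm and epithelium tested 3 rose (15.8%, against 3.92% of all genes) and none fell. The median was 0.57, and 5 rose without Null E9.5 replicate 2. Krt8 was at 223, 185 and 161 CPM in Null E9.5, 78.2 to 143 CPM (median 107) in WT E8.5 and 21.4 to 38.5 CPM (median 29.3) in WT E9.5 libraries, with a log2 fold change of 0.86 (95% interval 0.54 to 1.18, edgeR adjusted p = 0.00342). Krt19 was at 89.2, 62.4 and 156 CPM, against 16.2 to 43.9 CPM (median 29.7) and 16.1 to 31.0 CPM (median 24.9), with a log2 fold change of 1.75 (95% interval 1.18 to 2.31, edgeR adjusted p = 0.00159). For both, every Null library was above every WT library.

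Genes of trophoblast were highest in Null E9.5 replicate 3. Plet1, a surface protein of trophoblast progenitors and other epithelia, was at 13.5, 9.05 and 86.1 CPM, against 2.29 to 5.93 CPM (median 4.56) in WT E8.5 libraries, with a log2 fold change of 3.05 (edgeR adjusted p = 0.00136) and, without replicate 3, 1.37 (edgeR adjusted p = 0.0242). Gjb5, a connexin of trophoblast and skin, was at 16.2, 11.6 and 67.1 CPM, against 1.91 to 6.84 CPM (median 3.12), with a log2 fold change of 3.07 (edgeR adjusted p = 0.000817) and, without replicate 3, 1.90 (edgeR adjusted p = 0.00883). Of 7 trophoblast and placenta markers tested 4 rose with all libraries (57.1%, against 3.92% of all genes). Without replicate 3 none rose and 1 fell in edgeR, where 1 was higher and 1 lower at an unadjusted p under 0.05. Rhox6, which encodes a placental homeobox protein, had 3.43, 10.1 and 141 CPM, against 0.127 to 7.27 CPM (median 3.72), and its log2 fold change of 3.67 (edgeR adjusted p = 0.00738) became 0.76 (edgeR adjusted p = 0.564). Plac1, a placental surface protein, was high in replicates 2 and 3, at 4.53, 70.3 and 87.3 CPM, against 2.67 to 17.6 CPM (median 8.57), with a log2 fold change of 2.48 (edgeR adjusted p = 0.0113) and, without replicate 3, 1.97 (edgeR adjusted p = 0.0565). The 22 yolk sac markers tested had 0 calls in edgeR, 0 at an unadjusted p under 0.05 and 0 in DESeq2, with a median of 0.38. Without replicate 3 their median was -2.04, and 3 fell. S100g and Fga, a calcium-binding protein and a fibrinogen chain, were at 19.5, 23.8 and 328 CPM and 0.412, 1.66 and 48.9 CPM in the Null replicates.

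Imprinted genes were also among those that rose. They are expressed from 1 parental allele, many act on growth of the embryo and placenta, and they are high in mesoderm and extraembryonic tissue. Of 22 tested 10 rose (45.5%, against 3.92% of all genes) and none fell, with a median of 0.65, with 4 without Null E9.5 replicate 2, and without replicate 3 there were 8 with a median of 0.82. Cdkn1c, the cell cycle inhibitor p57, was at 681, 1279 and 495 CPM in Null E9.5, 161 to 337 CPM (median 256) in WT E8.5 and 369 to 499 CPM (median 419) in WT E9.5 libraries. Every Null library exceeded every WT E8.5 library, and replicates 1 and 2 also exceeded every WT E9.5 library, with a log2 fold change of 1.67 (95% interval 1.16 to 2.17, edgeR adjusted p = 0.0013) against WT E8.5. H19, the maternally expressed long RNA, was at 2854, 4097 and 3712 CPM, against 998 to 2125 CPM (median 1376), a log2 fold change of 1.22 (edgeR adjusted p = 0.00182). Peg10, a paternally expressed gene of retrotransposon origin that the placenta needs, was at 512, 571 and 915 CPM, against 150.2 to 489.9 CPM (median 247) in WT E8.5 and 132 to 179.9 CPM (median 141) in WT E9.5 libraries, a log2 fold change of 1.39 (edgeR adjusted p = 0.00372). Ascl2, a factor of trophoblast, was at 2.88, 2.68 and 83.0 CPM, against 0.54 to 2.93 CPM (median 1.59), and its log2 fold change of 4.21 (edgeR adjusted p = 0.00207) became 0.82 (edgeR adjusted p = 0.446) without replicate 3.

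Genes of ribosome biogenesis were among those that fell. Ribosome biogenesis uses nucleolar proteins such as nucleolin (Ncl) and nucleophosmin (Npm1), many of them targets of Myc. Of 23 tested 6 fell (26.1%, against 3.00% of all genes), none rose, and the median was -0.30. None was a DEG, and 21 of the 23 had a 95% interval within 2-fold. Below both WT stages there were also 6 (26.1%, against 3.44% of all genes), and 3 without Null E9.5 replicate 2. Their summed counts took 0.656 to 0.741% of the Null E9.5 libraries, 0.937 to 1.12% of the WT E8.5 and 0.905 to 1.10% of the WT E9.5 libraries, and the Null range lay below both WT ranges. These shares were not scaled for the most abundant identifier. Npm1 was at 1935, 1940.2 and 1867 CPM in Null E9.5, 2503 to 3052 CPM (median 2854) in WT E8.5 and 2454 to 2928 CPM (median 2695) in WT E9.5 libraries. Its log2 fold change of -0.55 (95% interval -0.71 to -0.39, edgeR adjusted p = 0.000865) against WT E8.5 was under 2-fold and held with all Null libraries below all WT libraries. Rrs1, a ribosome assembly factor, was at 89.4, 90.9 and 115 CPM, against 136 to 179 CPM (median 168) and 184 to 227 CPM (median 203), with a log2 fold change of -0.75 (95% interval -0.97 to -0.52, edgeR adjusted p = 0.00116). Ncl and Wdr12 fell by 0.56 (edgeR adjusted p = 0.00207) and 0.56 (edgeR adjusted p = 0.00638) on the log2 scale.

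Of 31 cell cycle and replication genes 3 rose and 4 fell (22.6% together, against 6.92% of all genes). The median was -0.21, and 28 of 31 had a 95% interval within 2-fold. Without Null E9.5 replicate 1, 8 fell. Ccne1, cyclin E1 of the entry into S phase, was at 107, 92.3 and 122 CPM, against 149.6 to 179.9 CPM (median 162) in WT E8.5 and 132 to 159 CPM (median 147) in WT E9.5 libraries, with a log2 fold change of -0.62 (95% interval -0.83 to -0.41, edgeR adjusted p = 0.00194). Rrm2, the small subunit of ribonucleotide reductase, was at 213, 269 and 284 CPM, against 342 to 443 CPM (median 381), a log2 fold change of -0.59 (edgeR adjusted p = 0.00258). In the other direction Mki67, the Ki-67 proliferation marker, was at 108, 112 and 121 CPM, against 66.9 to 95.4 CPM (median 77.4), a log2 fold change of 0.54 (edgeR adjusted p = 0.00578), and Ccnd3 (cyclin D3) at 429, 363 and 388 CPM, against 195 to 305 CPM (median 275). Ccnd3 had a log2 fold change of 0.58 (edgeR adjusted p = 0.00623) and stood within the WT E9.5 range of 357 to 452 CPM (median 408).

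Lin28b, an RNA-binding protein that blocks let-7 microRNAs and sets developmental timing, was at 50.6, 48.8 and 26.3 CPM in Null E9.5, 64.0 to 125 CPM (median 88.7) in WT E8.5 and 78.5 to 102 CPM (median 91.3) in WT E9.5 libraries. Every Null library was below all WT libraries, with a log2 fold change of -1.05 (95% interval -1.51 to -0.59, edgeR adjusted p = 0.00865) against WT E8.5 and -1.05 against the nearer WT stage (edgeR adjusted p = 0.000445). Of the 13 genes tested in the list of developmental timing around Lin28 it alone passed (7.69%, against 6.92% of all genes). Without Null E9.5 replicate 1, 3 fell. With all libraries 11 of the 13 had a 95% interval within 2-fold.

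Among stress genes, of 30 genes of the integrated stress and unfolded protein response 6 rose (20%, against 3.92% of all genes) and none fell. The median was 0.12. Without replicate 3 none rose and 1 fell in edgeR, with 7 higher and 8 lower at an unadjusted p under 0.05. The 6 were 3 without WT E8.5 replicate 4. Trib3, a pseudokinase that ATF4 induces, was at 13.5, 4.85 and 16.9 CPM, against 0 to 4.45 CPM (median 1.39), and its log2 fold change of 2.69 (edgeR adjusted p = 0.0158) was 2.33 (edgeR adjusted p = 0.0574) without replicate 3. Ddit3 (CHOP) was at 1.92, 6.76 and 6.90 CPM, against 0.561 to 2.56 CPM (median 1.27) in WT E8.5 and 3.07 to 8.21 CPM (median 5.43) in WT E9.5 libraries, with a log2 fold change of 1.91 (edgeR adjusted p = 0.0204) that failed without Null replicate 2 or 3 (adjusted p 0.0817 to 0.0903, edgeR). Asns, asparagine synthetase, was at 98.6, 55.1 and 132 CPM, against 45.4 to 69.6 CPM (median 55.2), with 0.75 (edgeR adjusted p = 0.0241) and, without replicate 3, 0.45 (edgeR adjusted p = 0.147).

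Among 15 immediate early and heat shock genes 5 rose (33.3%, against 3.92% of all genes) and none fell. Without Null E9.5 replicate 2, 2 rose, and without replicate 3, 3 rose and 1 fell. Hspb1, a small heat shock protein, was at 29.8, 19.8 and 93.8 CPM, against 5.98 to 14.5 CPM (median 11.3) in WT E8.5 libraries, with a log2 fold change of 2.11 (edgeR adjusted p = 0.00182) and, without replicate 3, 1.17 (edgeR adjusted p = 0.0226). Ier3, an early response gene, was at 10.3, 34.7 and 20.1 CPM, against 1.32 to 11.0 CPM (median 5.25), with 1.99 (edgeR adjusted p = 0.0158), lost without replicate 2 (adjusted p = 0.111, edgeR). Hmox1, heme oxygenase, was at 7.14, 10.46 and 31.6 CPM, against 2.08 to 7.38 CPM (median 3.35), with 2.12 (edgeR adjusted p = 0.00482), and 1.23 (edgeR adjusted p = 0.0811) without replicate 3. Of 25 p53 targets and apoptosis genes 3 rose and 1 fell (16% together, against 6.92% of all genes), with a median of 0.17. Without replicate 3 there were 0 calls in edgeR, with 5 higher and 3 lower at an unadjusted p under 0.05. Perp, a p53 target in epithelial junctions, was at 12.8, 14.0 and 29.3 CPM, against 3.18 to 10.3 CPM (median 5.64), with 1.65 (edgeR adjusted p = 0.00623) and, without replicate 3, 1.18 (edgeR adjusted p = 0.0547).

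Of 31 lysosomal genes 6 rose (19.4%, against 3.92% of all genes) and none fell, with a median of 0.45, and 4 without replicate 3, with a median of 0.04. Ctsd, the protease cathepsin D, was at 193, 129 and 201 CPM, against 93.6 to 131 CPM (median 112) in WT E8.5 and 97.6 to 119 CPM (median 107) in WT E9.5 libraries, a log2 fold change of 0.65 (edgeR adjusted p = 0.00482). Sqstm1, the autophagy receptor p62, was at 140.0, 118 and 216 CPM, against 74.2 to 109.6 CPM (median 89.0), a log2 fold change of 0.81 (edgeR adjusted p = 0.00494). Npc2, which hands cholesterol out of the lysosome, was at 385, 324 and 295 CPM, against 186 to 278 CPM (median 233), a log2 fold change of 0.55 (edgeR adjusted p = 0.00974), and Grn (progranulin) was at 66.8, 45.6 and 56.9 CPM, against 18.4 to 40.3 CPM (median 30.1), a log2 fold change of 0.95 (edgeR adjusted p = 0.0115). All Null libraries were above all WT E8.5 libraries in Npc2, Sqstm1 and Grn, and replicate 2 fell within their range in Ctsd. These 4 were also called with each of the 13 libraries left out. Cholesterol and fatty acid synthesis had 0 calls of 26 in edgeR (2 lower at an unadjusted p under 0.05, 0 calls in DESeq2), a median of 0.08 and 23 of 26 intervals within 2-fold. Between the WT stages E8.5 and E9.5 the same genes had a median of 0.74. None of 6 interferon response genes passed in edgeR (1 higher at an unadjusted p under 0.05, 1 called higher by DESeq2), though 1 was higher without any 1 of the Null E9.5 libraries, and none of 6 markers of decidua and leukocytes (0 at an unadjusted p under 0.05, 0 calls in DESeq2).

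**Figure D5:**
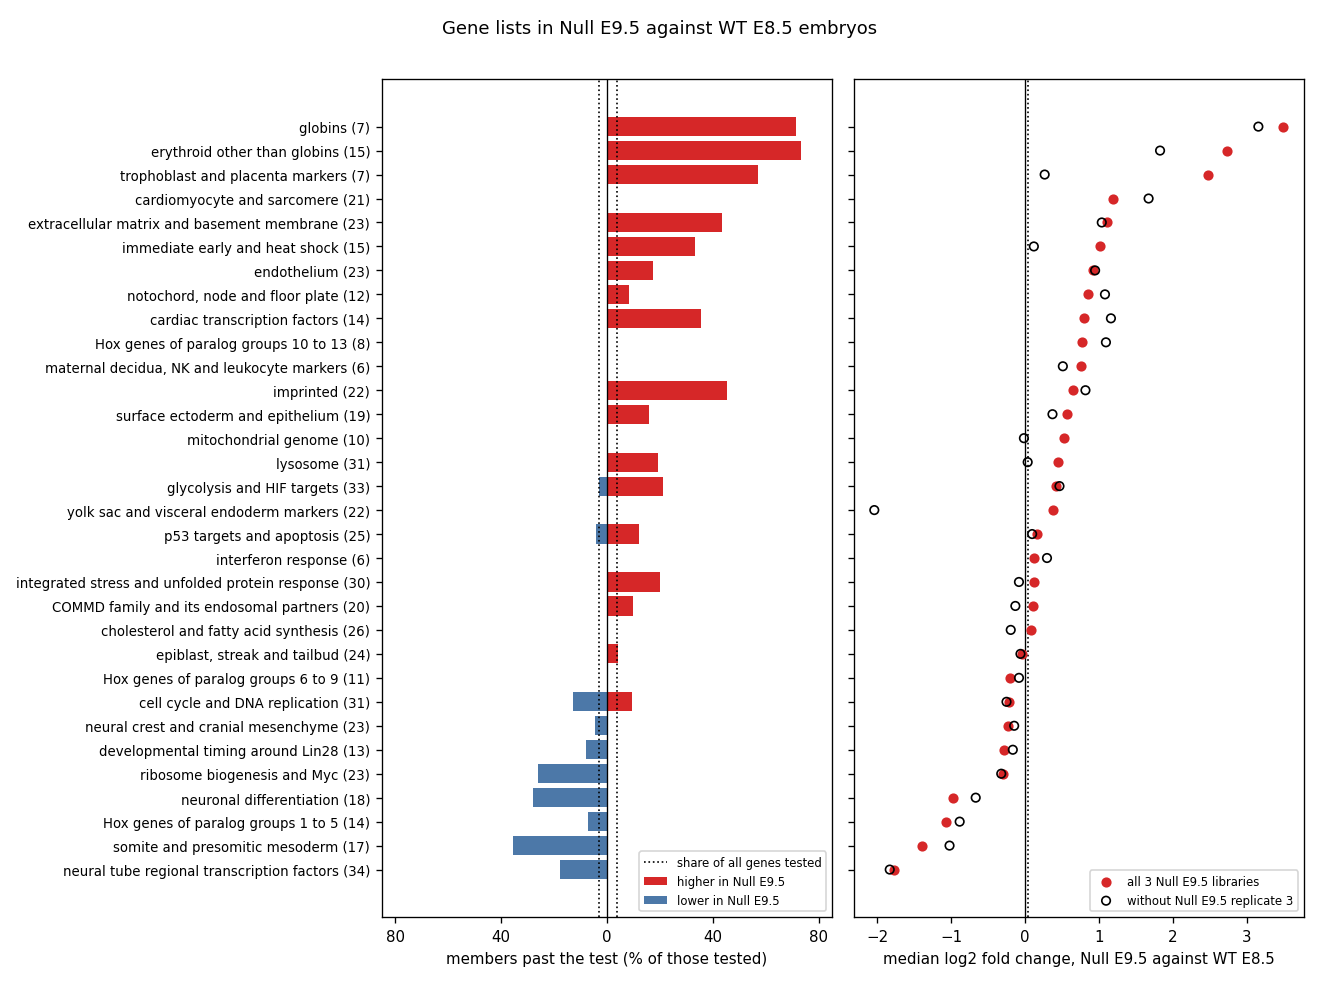
Gene lists (number of members tested) in Null E9.5 against WT E8.5 embryos. Left, members past an adjusted p of 0.05 as a percent of those tested, higher to the right and lower to the left, with dotted lines at the shares of all genes (3.92% and 3.00%), and right, the median log2 fold change with all 3 Null libraries (filled) and without replicate 3 (open), with a dotted line at the median of all genes. Erythroid genes and globins reach furthest to the right (73.3% and 71.4%) and somite genes furthest to the left (35.3%), the lowest medians are those of neural tube (-1.77) and somite genes (-1.40), and the trophoblast and yolk sac medians move most without replicate 3.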

How the data were processed

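The authors made 3′-end libraries (Lexogen QuantSeq FWD) from total RNA of whole embryos and deposited raw counts per gene for 32 libraries. Reads were trimmed and aligned to coding regions of mm10 with STAR. The study's methods name BBDuk for trimming and the submitters' processing notes Trimmomatic 0.35. Genes were annotated with biomaRt. The tool used for counting, its strand setting and the annotation release were not given in the sources used here, so reads of overlapping and antisense genes cannot be told apart.

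Here the deposited counts were tested with edgeR 4.0.16 in R 4.3.3 (TMM factors, quasi-likelihood test, two-sided, Benjamini-Hochberg adjustment over all genes tested, at least 10 counts at the median library size and 15 in all) on the 13 Null E9.5 and WT E8.5 libraries, and with WT E9.5 in a model of 22 libraries. CPM were taken from the latter. DEGs had an adjusted p of 0.05 or less and a change of at least 2-fold. Sharing of libraries between comparisons was dealt with by taking the larger p. Samples were grouped by genotype and stage as labelled. Totals of 7025188 to 9069005 counts per library set the precision, and intervals cover counting or library spread only. 3333 of the 55414 identifiers had no symbol.

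The genes and 32 lists were chosen with earlier results of these data known. The genes named are Commd10, the 10 largest changes each way (against WT E8.5, and beyond both stages) without overlap between groups and with a mean of at least 5 CPM, and up to 4 members of each list with the smallest p. Hba-a2, Klf1, Epas1, Col4a2, Fn1, Gapdh, P4ha2, Slc16a3 and Aldoa were added after their values were seen, and some genes that the rule names are not reported here. On simulated counts of 13348 genes for Null E9.5 against WT E8.5, 19 of 50 genes changed 2-fold, 37 of 50 changed 4-fold and 45 of 50 changed 16-fold passed, with 1 of 13157 unchanged genes. The simulated Null libraries were given the same spread as the WT libraries, whereas the real Null E9.5 libraries differed more from each other. These simulated counts hold for equal spread only. Alternatives were DESeq2 1.42.0, RLE or no factors, other filters, library sets and a replicate block, and leaving out each library. Leaving out each WT E9.5 library was chosen after the data were seen. No 2 libraries agreed within sampling noise. Promoter sequences are from RefSeq (GRCm38.p6).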

Additional observations from a re-analysis of the deposited data

Results flagged for a closer look

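In 14 of 188 sets of values examined, each a named gene or library measure in the 10 WT E8.5 or 9 WT E9.5 libraries, 1 library lay apart from the others by a gap that is large against the range of its group. Chance gives about 1 in 20. Of the 14, 8 were in WT E8.5 and 6 in WT E9.5 embryos, and the 3 Null E9.5 libraries were too few to be examined.

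In WT E8.5 replicate 10, Tcf15 was at 34.1 CPM, above the next library at 22.6, and Hemgn was at 2.30 CPM, above the next at 0.766. Replicate 2 was highest for Hbb-y, at 63.2 CPM against the next at 31.1, and for Lin28b, at 125 CPM against the next at 94.7. Replicate 8 was highest for Fn1, at 399 CPM, and for Peg10, at 489.9 CPM, and lowest for Rrs1, at 136 CPM. Replicate 9 was highest for Gata4, at 55.8 CPM. Without the library in question the calls of these genes against WT E8.5 were kept.

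In WT E9.5, replicate 9 was highest for Hba-x, at 6477 CPM, and for Ascl2, at 1.14 CPM. Replicate 8 was highest for Utf1, at 1.60 CPM, for S100g, at 6.27 CPM, and for Fga, at 1.84 CPM. Replicate 7 was highest for H19, at 3589.7 CPM.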

How the results depend on the processing

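Against WT E8.5 the 388 DEGs became 394 with RLE factors, 377 without factors, 299 under the stricter filter and 361 with no filter. DESeq2 gave 604, of them 241 lower. A model of all 22 libraries gave 845 (556 higher, 289 lower) and 1 of all 32 gave 1005 (676 higher, 329 lower). With no minimum fold there were 954 (540 higher, 414 lower). Leaving out 1 library gave 310 to 604 DEGs (217 to 425 higher, 84 to 179 lower), with the most without Null E9.5 replicate 1. Beyond both WT stages, 1017 genes became 900 to 1271 with 1 library left out (426 to 649 higher, 425 to 622 lower), 354 with at least 2-fold against both (191 higher, 163 lower), and 342 higher and 793 lower without factors. The developmental score difference was 0.340 to 0.532 with 1 library left out and 0.297 with 50 genes each way, past the threshold in all of these but the last.

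The labels number the replicates in both groups, but libraries of the same number did not deviate together (correlations of 0.04, 0.20 and -0.24). With the replicate number as a block 10 DEGs remained (3 higher, 7 lower) and 78 of 82 named genes that had passed (Col1a1 not among them) were lost. Only 6 of the 13 libraries share a number across groups.

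Of the 82, 22 were lost without Null E9.5 replicate 3, 14 without replicate 2, 10 without replicate 1, at most 8 without a WT E8.5 library, 4 with no filter, 1 without factors, and none with RLE factors or among the 80 with an adjusted p in DESeq2. S100g and Fga, neither of which passed, turned from higher to lower without Null E9.5 replicate 3, at -1.27 (edgeR adjusted p = 0.310) and -2.86 (edgeR adjusted p = 0.0436) on the log2 scale, and reached 1.73 and 1.67 without replicate 2. The causes were not tested. With 3 Null libraries, the interval of the change lay within 2-fold for 54.3% of genes and reached or passed 2-fold for the others.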
